A study of Mus musculus with 8 samples.

Results

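The MHC class II genes, their regulator Ciita and the protease gene Ctss were followed in mouse macrophages given 1 of 7 stimuli for 4 h. The 9 genes were chosen by name, with no threshold on their values, as the Ensembl identifiers that map to H2-Aa, H2-Ab1, H2-Eb1, H2-DMa, H2-DMb1, H2-DMb2, Cd74, Ciita and Ctss. They are 9 of the 36806 gene lines in each deposited table, and all 9 had at least 1 FPKM in every comparison, so 63 gene-by-stimulus differences were read. FPKM scales the fragments of a gene by transcript length and library size.

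MHC class II molecules present peptides from the endosome to CD4+ T cells. Each is a pair of an alpha and a beta chain that is assembled with the invariant chain, and the invariant chain is cut away in the endosome before a peptide is loaded. Ciita binds no DNA of its own in the textbook account: it is recruited by RFX, CREB and NF-Y factors that sit on the X and Y boxes of class II promoters, and interferon gamma is its best known inducer in macrophages.

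The cells were C57BL/6 bone marrow-derived macrophages, differentiated for 7 days in medium conditioned by L929 fibroblasts. Poly(A) RNA was sequenced after 4 h with 1 agent, and from untreated cells. IFNg, which is interferon gamma, was given at 100 ng/ml. IL4, TNFa and IL1b, the cytokines interleukin 4, tumour necrosis factor alpha and interleukin 1 beta, were each given at 10 ng/ml. TGFb1, transforming growth factor beta 1, and the lipopeptide MALP2, a ligand of Toll-like receptors, were each given at 1 ng/ml, and CpG DNA was given at 100 nM. There was a single library per group and hence no replicate check, and the 7 comparisons share 1 untreated library. C57BL/6 mice carry the b haplotype, which as background lacks a functional H2-Ea chain, so the H2-Eb1 transcript is made here without its usual partner.

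Of the 9 genes, 6 matched RefSeq promoter sequences on GRCm38.p6, which run from 250 bases before to 50 bases after the start: H2-Aa, H2-Eb1, H2-DMa, H2-DMb1, H2-DMb2 and Ctss. The stretch from the X box to the Y box is shown for the 4 genes in which it was found, because it is the element through which Ciita is known to act. Capitals mark, from 5′ to 3′, the X1 letters GCAAC or AACNGATG, the X2 letters TGATGC or TGACGTCA, and the Y box letters TGATTGG.
H2-Aa: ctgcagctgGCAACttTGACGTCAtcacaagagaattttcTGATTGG
H2-Eb1: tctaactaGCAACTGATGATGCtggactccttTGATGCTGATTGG
H2-DMb1: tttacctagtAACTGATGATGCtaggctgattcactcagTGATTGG
H2-DMb2: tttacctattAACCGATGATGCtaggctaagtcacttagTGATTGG

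These windows lie at chr17:34287867-34287913 on the minus strand for H2-Aa, and on the plus strand at chr17:34305768-34305812 for H2-Eb1, chr17:34153089-34153134 for H2-DMb1 and chr17:34145118-34145163 for H2-DMb2. The X2 letters began 74 bases before the start in H2-Aa, 83 in H2-Eb1, 86 in H2-DMb1 and 115 in H2-DMb2. The spacing from X2 to Y was 16 bases in both H2-Aa and H2-Eb1 and 17 bases in both H2-DMb genes. H2-Eb1 held a further TGATGC directly before its Y box. The letters AACNGATG end inside TGATGC in 3 of the 4 windows and overlap GCAAC in H2-Eb1, and TGATTGG contains ATTGG. The letters TGATGC for X2, the longer Y box TGATTGG and the letters AACNGATG were chosen after the members' sequences had been read, and all motifs were searched on both strands.

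The combination of either X2 form 10 to 40 bases before TGATTGG, counted from first base to first base, was found in 47 of 32851 promoters (0.143%). These included H2-Eb2 and H2-Ob beside the 4 shown. Because letters of the combination were taken from the members' own sequences, the share is not an independent background for them. Single motifs were far more common. ATTGG was in 37.4% of promoters, GCAAC in 35.2%, TGATGC in 10.9%, TGATTGG in 7.82%, AACNGATG in 2.32% and TGACGTCA in 1.79%. H2-DMa, which has 2 starts in the table, held ATTGG 198 bases before one of them and no such pair of boxes. Its promoter windows, chr17:34122582-34122881 and chr17:34125268-34125567, lie farther before H2-DMb2 than the deposited H2-DMa locus given below does. Sequence at the deposited start of H2-DMa was therefore not searched, and whether it holds the boxes was not tested. Ctss held AACNGATG 207 bases before its start and no ATTGG. A further X2 form, TGANGCA, was in 14.3% of promoters, among them H2-Eb1, H2-DMb2 and Ctss, at positions outside the windows shown. The gamma-activated letters TTCNNNGAA, in 8.30% of promoters, occurred in H2-DMb2 alone among the 6 genes.

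In the deposited mm9 coordinates, H2-DMa (ENSMUSG00000037649) lay on chromosome 17 from 34272546 to 34276027, H2-DMb2 (ENSMUSG00000037548) from 34282216 to 34288494 and H2-DMb1 (ENSMUSG00000079547) from 34290136 to 34297174. H2-Aa (ENSMUSG00000036594) and H2-Ab1 (ENSMUSG00000073421) were given a common assembled locus on the same chromosome, from 34400185 to 34424716, and H2-Eb1 (ENSMUSG00000060586) ran from 34442812 to 34453619. Outside that cluster were Cd74 (ENSMUSG00000024610, chromosome 18, 60963502 to 60972300), Ciita (ENSMUSG00000022504, chromosome 16, 10480237 to 10527657) and Ctss (ENSMUSG00000038642, chromosome 3, 95330708 to 95360325). These spans are assembled loci that include exons, introns and UTRs.

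Sharing of reads limits the H2-DMb pair above all. Of the 36-base windows in the longest coding transcript of H2-DMb1, 34.5% also occur in H2-DMb2, and the 2 transcripts are 94.6% identical over 1219 aligned bases. For H2-DMb2, 39.0% of windows occur in another gene. The share was 1.24% or lower in each of the other 7 genes. The separate values of H2-DMb1 and H2-DMb2 are therefore uncertain.

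Absolute depth is unknown because the tables hold no counts. The FPKM value of a single read, taken from the steps between low values, was 2.04 times that of untreated cells after IFNg and 1.04 to 1.44 times after the other 6. IFNg was therefore the shallowest library relative to untreated. The macrophage genes Adgre1, Csf1r, Cd68, Mertk, Fcgr1, Itgam and Cd14 were above 1 FPKM in all 8 libraries, and Lyz2 had no valid estimate. Their levels were not constant: Mertk had 1.18 (MALP2) to 19.8 FPKM (TGFb1) after the stimuli, against 23.1 untreated. Fcgr1 had 116 (IL4) to 1233 FPKM (IFNg), against 319 untreated. B cells and dendritic cells also express class II. The B-cell genes Cd79a, Ms4a1 and Pax5 stayed at or below 0.0944 FPKM in every library. Cd79b had 1.58 to 2.85 FPKM after the stimuli, against 7.82 untreated, and Cd22 had 1.16 to 2.09, against 3.83 untreated. The summed level of 9 B-cell markers was 39.7 to 73.8 FPKM in stimulated libraries. In untreated cells it was 240.2 FPKM, carried mainly by Ighm and Blnk. The dendritic-cell genes Flt3 and Zbtb46 stayed below 1 FPKM, although Zbtb46 was 0.724 FPKM after IL4, against 0.0902 untreated. Batf3 had 8.48 FPKM after IFNg, 35.0 after IL4 and 0 to 0.466 after the other 5 stimuli, against 2.39 untreated. Itgax had 9.58 after IFNg and 8.601 after IL4, against 2.10 untreated, and Clec9a had 1.92 after IFNg, against 0.138 untreated. Kmo was lower after every stimulus, with 2.33 FPKM after IFNg and 0.308 to 0.556 after the other 6, against 4.94 untreated. The sum of all 11 dendritic-cell markers was 25.1 FPKM after IFNg, 46.4 after IL4 and 5.47 to 12.1 after the other 5 stimuli, against 11.95 FPKM untreated. The 5 stromal markers summed to 86.6 FPKM after IFNg and 40.6 to 47.8 after the others, against 41.1 FPKM untreated. The 7 markers of T and NK cells summed to under 1 FPKM in every library. The part of these differences in the results below was not tested. In bulk RNA, fewer cells of a type and less RNA per cell cannot be told apart.

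Ciita was the most variable of the 9 genes. It was higher only after IFNg and lower after each of the other 6 stimuli. After IFNg it had 20.7 FPKM (authors' bounds 12.9 to 28.5), against 2.92 FPKM (1.59 to 4.26) in untreated cells of the same table. The plain FPKM ratio was 7.07. After TGFb1 it had 0.307 FPKM (0.185 to 0.429), against 3.19 FPKM (1.97 to 4.41) untreated, a 10.4-fold lower level. After IL1b the gene was at 0.5996 FPKM (0.401 to 0.798), against 3.14 FPKM (1.94 to 4.34) untreated, a 5.23-fold lower level. The bounds of stimulated and untreated cells did not overlap in these 3 comparisons or after CpG.

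The other decreases of Ciita were smaller. After CpG it was 1.03 FPKM (0.587 to 1.48), against 3.04 FPKM (1.66 to 4.42) untreated, a 2.94-fold lower level. After IL4 it was 1.29 FPKM (0.720 to 1.86), against 3.22 FPKM (1.83 to 4.61) untreated, and the bounds met by a narrow margin. MALP2 gave 1.41 FPKM, against 3.04 untreated, and TNFa gave 1.65 FPKM, against 3.10 untreated. All these levels are near the 1 FPKM floor, and a pseudocount of 1 compresses their differences.

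Changes are given from here on as log2 of stimulated FPKM + 1 over untreated FPKM + 1, with a 2-fold difference at a size of 1. On that scale Ciita was 2.47 after IFNg, -1.68 after TGFb1, -1.37 after IL1b, -0.99 after CpG, -0.88 after IL4, -0.75 after MALP2 and -0.63 after TNFa. Among all tested genes, 2.41% had a higher value than Ciita after IFNg and 2.45% a lower one after TGFb1. In the authors' deposited table, the q-value for Ciita was 2.2e-09 after IFNg, 3.7e-09 after IL1b, 0.0057 after CpG and 0.0222 after IL4, and it was listed as 0 after TGFb1. The authors' deposited table did not call Ciita after MALP2 (q = 0.0524) or TNFa (q = 0.0977).

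Because the 7 tables share the untreated library, a level relative to the other stimulated libraries was also read. The untreated values of the tables differed by 1 factor per table, so the tables could be joined. Against the median of the other 6 stimulated libraries, Ciita was 3.42 higher on the log2 scale after IFNg. It was 0.85 lower after TGFb1 (log2 change -0.85) and 0.55 lower after IL1b (-0.55), and it lay between -0.19 and 0.30 for the remaining 4. The IFNg and TGFb1 libraries were the extremes of Ciita against either set of libraries.

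**Figure D1:**
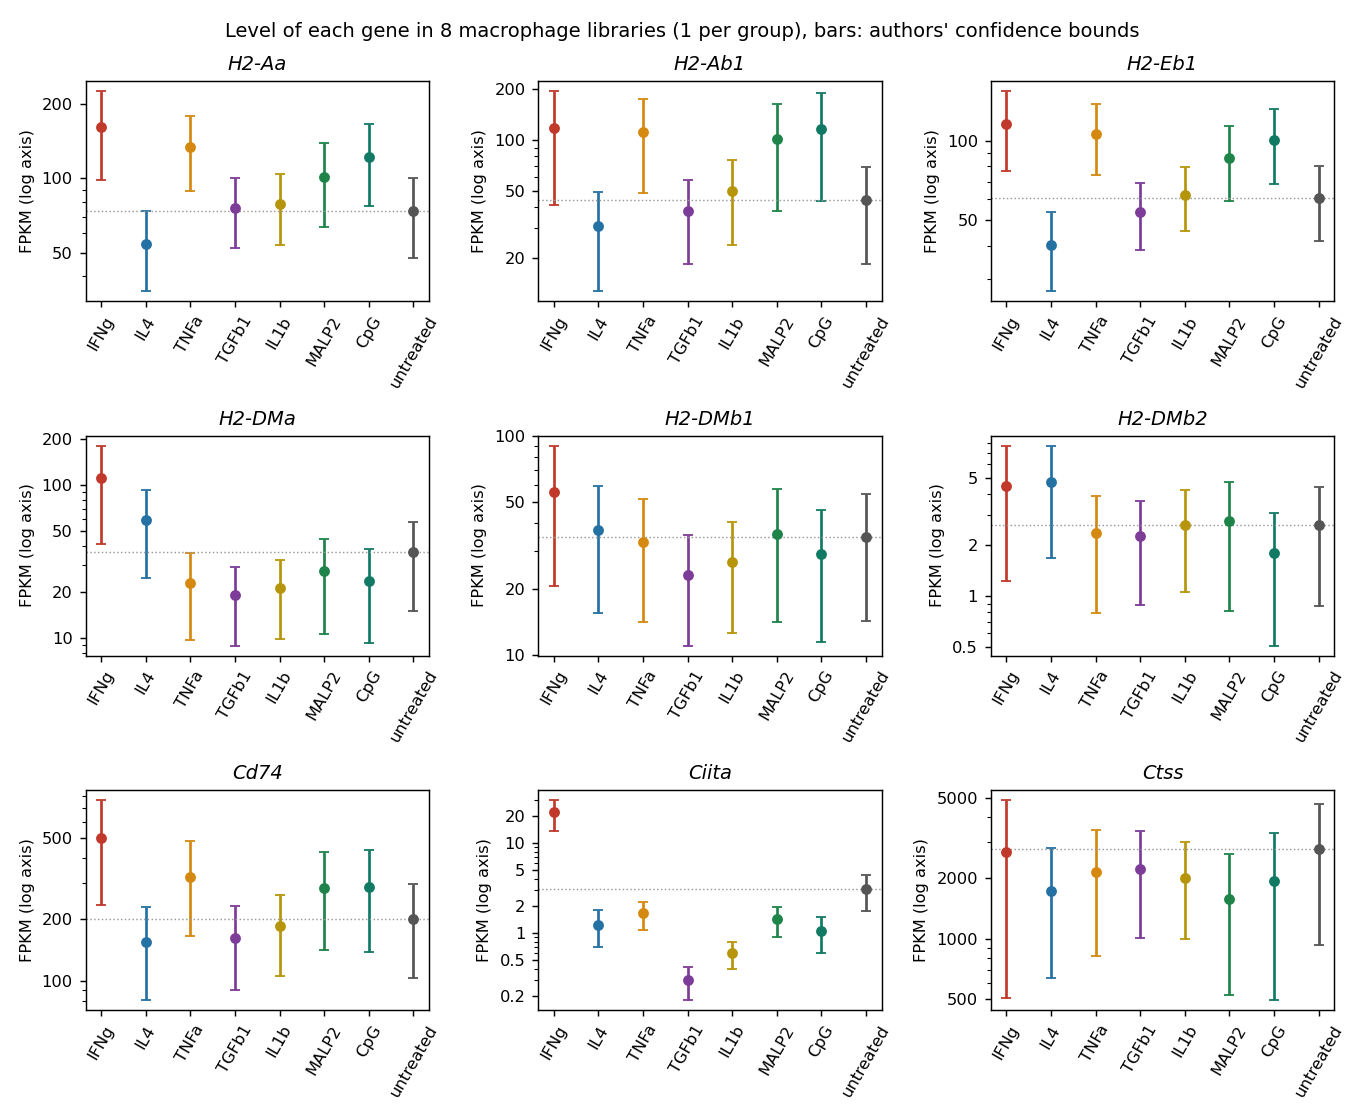
Level of each of the 9 genes, in FPKM joined over the tables (log axis, 1 panel per gene), in the 7 stimulated libraries and then the untreated one; points are single libraries, bars are the authors' confidence bounds and the dotted line is the untreated level. Ciita spans 73.6-fold between IFNg and TGFb1, while Ctss spans 1.77-fold.

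The classical chains and the invariant chain moved less than Ciita and in another order. H2-Aa encodes the alpha chain and H2-Ab1 the beta chain of I-A, the only complete class II molecule of this strain, H2-Eb1 encodes the beta chain of I-E, and Cd74 encodes the invariant chain. All 4 were higher after IFNg, TNFa, MALP2 and CpG, and all 4 were lower after IL4. After TGFb1 and IL1b they stayed between -0.31 and 0.19 on the log2 scale.

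H2-Ab1 had 118 FPKM after IFNg, 30.8 after IL4, 112 after TNFa, 38.1 after TGFb1, 50.1 after IL1b, 101 after MALP2 and 116 after CpG, against 43.9 FPKM in untreated cells, all in joined FPKM. IFNg, CpG, TNFa and MALP2 thus formed a high group at 101 to 118 FPKM, and the other 3 stimulated libraries stood beside the untreated one. It was the one gene at least 2-fold higher after 4 stimuli, with log2 changes of 1.40 after IFNg, 1.39 after CpG, 1.33 after TNFa and 1.18 after MALP2. No bounds of H2-Ab1 stood apart between any 2 libraries. The authors' deposited table listed q-values of 0.133 after IFNg, 0.119 after CpG, 0.0978 after TNFa and 0.212 after MALP2, none of them called.

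H2-Aa had 163 FPKM after IFNg, 54.4 after IL4, 135 after TNFa, 76.2 after TGFb1, 79.0 after IL1b, 102 after MALP2 and 122 after CpG, against 74.0 FPKM untreated. IFNg, TNFa, CpG and MALP2 again held the 4 highest levels and IL4 the lowest, over a range of 2.99-fold, where that of H2-Ab1 was 3.83-fold. The bounds after IFNg, TNFa and CpG each lay wholly above those after IL4, and none stood apart from untreated. The log2 change after IFNg was 1.12, and the authors' deposited table called it (q = 0.0279).

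For H2-Eb1 the levels were 116 FPKM after IFNg, 40.3 after IL4, 106 after TNFa, 53.9 after TGFb1, 62.5 after IL1b, 86.3 after MALP2 and 100.3 after CpG, against 61.0 FPKM untreated. No change reached 2-fold: the largest was 0.91 after IFNg, which the authors' deposited table called (q = 0.0436). IFNg and TNFa had bounds wholly above those of TGFb1 and IL4, and those of CpG and MALP2 lay above IL4.

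Cd74 had 501 FPKM after IFNg, 156 after IL4, 324 after TNFa, 162 after TGFb1, 185 after IL1b, 285 after MALP2 and 288 after CpG, against 202 FPKM untreated. It was the most abundant of the 4 in every library. Only IFNg passed 2-fold, at 1.31, and the authors' deposited table did not call it (q = 0.0959). Bounds after IFNg lay above those after TGFb1 and IL4 and overlapped those of the other libraries.

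**Figure D2:**
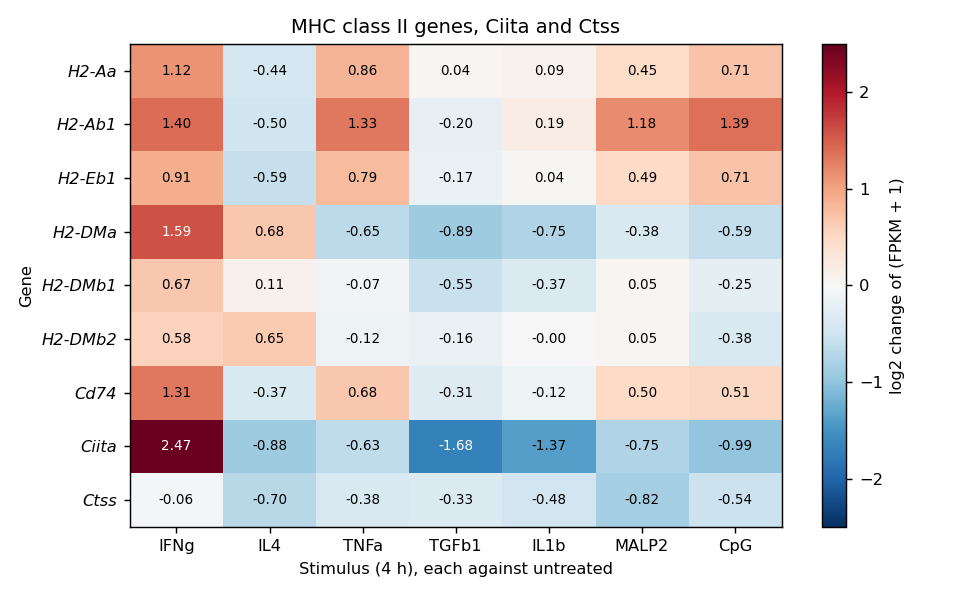
Log2 change of FPKM + 1 for each of the 9 genes (rows) after each stimulus (columns), each against untreated cells of the same table; red is higher and blue lower after the stimulus. H2-Aa, H2-Ab1, H2-Eb1 and Cd74 are red after IFNg, TNFa, MALP2 and CpG, whereas Ciita is red after IFNg alone, at 2.47.

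The DM chains, which form the endosomal exchange factor that removes the invariant chain remnant and edits the bound peptides, had a different order again. H2-DMa, the alpha chain, had 111 FPKM after IFNg, 58.8 after IL4, 22.8 after TNFa, 19.1 after TGFb1, 21.1 after IL1b, 27.6 after MALP2 and 23.7 after CpG, against 36.2 FPKM untreated. It was higher after IFNg and IL4 and lower after the other 5. The log2 changes were 1.59 after IFNg and 0.68 after IL4, and between -0.89 (TGFb1) and -0.38 (MALP2) elsewhere. The bounds after IFNg lay wholly above those after TNFa, TGFb1, IL1b and CpG and overlapped those of untreated cells. The authors' deposited table gave q = 0.0624 after IFNg, without a call.

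After IL4 the value of H2-DMa moved in the other direction from those of the classical chains. Against the median of the other 6 stimulated libraries, the log2 change after IL4 was 1.302 for H2-DMa, -1.03 for H2-Aa, -1.75 for H2-Ab1 and -1.19 for H2-Eb1. Opposite signs were also seen after TNFa, MALP2 and CpG against untreated cells: -0.65, -0.38 and -0.59 for H2-DMa, and 1.33, 1.18 and 1.39 for H2-Ab1. These opposite directions have no replicate check. The bounds of H2-DMa after IL4 (24.7 to 92.8 joined FPKM) overlapped those of every other library. None of these changes was called by the authors. After IL4, q was 0.499 for H2-DMa, 0.482 for H2-Aa, 0.652 for H2-Ab1 and 0.227 for H2-Eb1. For H2-DMa after TNFa, MALP2 and CpG it was 0.528, 0.788 and 0.607.

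H2-DMb1, a DM beta chain, ranged less, with 55.7 FPKM after IFNg, 37.4 after IL4, 32.8 after TNFa, 23.3 after TGFb1, 26.5 after IL1b, 35.8 after MALP2 and 28.8 after CpG, against 34.6 FPKM untreated. H2-DMb2, the second beta chain gene, was 1.79 to 4.69 FPKM after the stimuli, highest after IL4 and IFNg, against 2.64 FPKM untreated. Neither passed 2-fold in any comparison, and no bounds of either gene stood apart.

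Ctss encodes cathepsin S, the protease that trims the invariant chain to the remnant which DM removes. It was the most abundant of the 9 genes in every library, with 2689 FPKM after IFNg, 1724 after IL4, 2142 after TNFa, 2220 after TGFb1, 2000.45 after IL1b, 1579 after MALP2 and 1925 after CpG, against 2795 FPKM untreated. All 7 stimulated values lay below the untreated one, by 0.056 on the log2 scale after IFNg (log2 change -0.056) and at most by 0.82 after MALP2 (-0.82). No difference passed 2-fold and all bounds overlapped.

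Counts over the 9 genes were read against the share of all tested genes that passed the same 2-fold rule. After IFNg, 5 of 9 were higher (H2-Aa, H2-Ab1, H2-DMa, Cd74 and Ciita), where 10.7% of all tested genes were, and 0 were lower, where 12.7% were. TNFa, MALP2 and CpG each had 1 higher gene, H2-Ab1, beside a background of 8.92%, 9.53% and 9.43%, and 0 lower ones beside 10.4%, 11.7% and 11.2%. TGFb1 and IL1b each had 1 lower gene, Ciita, beside 9.15% and 8.57% of all genes, and 0 higher beside 7.15% and 7.29%. IL4 had 0 in either direction, beside 9.86% higher and 11.9% lower. With 1 gene of 9, the share after those stimuli is close to the background.

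The authors' deposited table called 3 of the 9 genes after IFNg (H2-Aa, H2-Eb1 and Ciita), where it called 18.9% of all tested genes. It called Ciita alone after IL4, TGFb1, IL1b and CpG, beside 19.2%, 17.5%, 16.8% and 18% of all genes. The authors' deposited table called none of the 9 after TNFa or MALP2, beside 17.9% and 17.7%. In all, 8 of the 63 differences were at least 2-fold higher, 2 were at least 2-fold lower and 7 carried the authors' call. The median log2 change of the 9 genes was 1.12 after IFNg, where that of all tested genes was -0.11. After IL4 it was -0.44 beside -0.11, and after TGFb1 -0.31 beside -0.077. For TNFa, IL1b, MALP2 and CpG the medians were -0.071, -0.12, 0.049 and -0.25, beside -0.096, -0.090, -0.095 and -0.12 for all tested genes.

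Ratios within a library show the same separation without the untreated library or the joining of tables. The H2-Ab1 level was 5.37 times that of Ciita after IFNg, 24.8 times after IL4, 67.7 after TNFa, 70.0 after MALP2, 84.6 after IL1b, 111 after CpG and 128 after TGFb1, against 14.2 times in untreated cells. The ratio of H2-DMa to H2-Ab1 was 0.945 after IFNg, 1.91 after IL4, 0.204 after TNFa, 0.500 after TGFb1, 0.421 after IL1b, 0.274 after MALP2 and 0.203 after CpG, against 0.825 untreated. IL4 was the only library in which H2-DMa exceeded H2-Ab1, and the bounds of the 2 genes overlapped there.

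**Figure D3:**
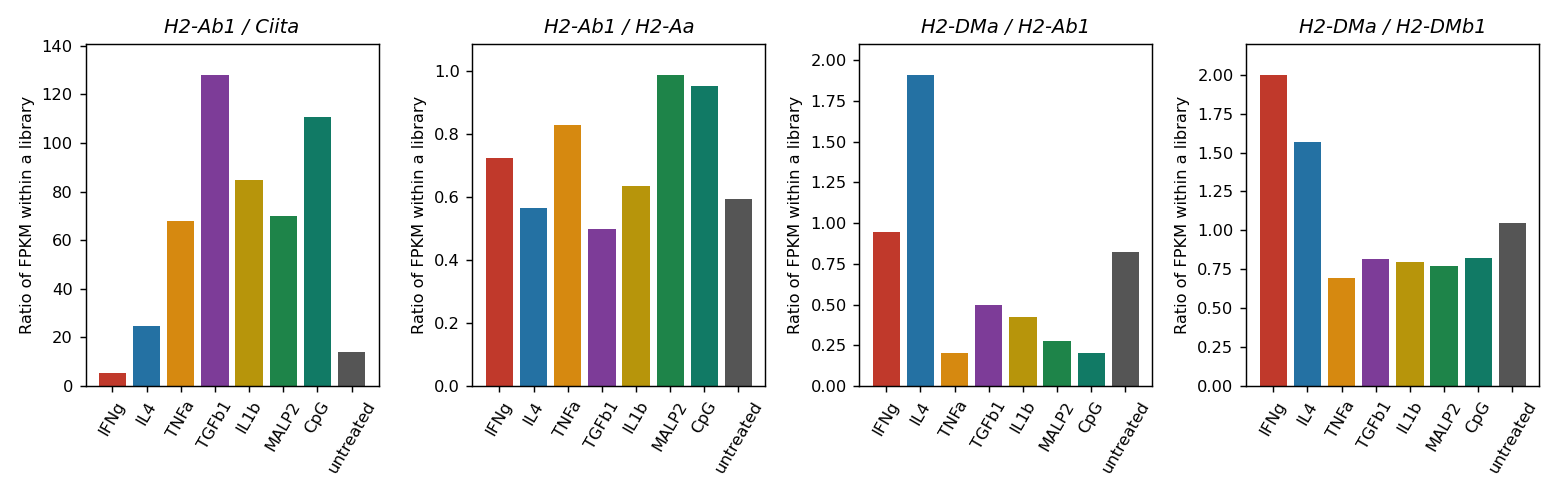
Ratio of FPKM between pairs of genes within each library (linear axes from 0), stimulated libraries first and untreated last; each bar is 1 library, with no error. H2-DMa over H2-Ab1 is 1.91 after IL4 and 0.945 or lower elsewhere.

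The measured ratio of the I-A chains differed between single libraries, but it carries no error and no bounds of H2-Ab1 stood apart. Whether the proportion itself differed was not tested. H2-Ab1 over H2-Aa was 0.988 after MALP2, 0.953 after CpG, 0.829 after TNFa, 0.724 after IFNg, 0.634 after IL1b, 0.566 after IL4 and 0.500 after TGFb1, against 0.593 untreated. H2-Ab1 was thus nearest to H2-Aa after MALP2, CpG and TNFa, where both were higher and Ciita lower than in untreated cells. Cd74 over H2-Ab1 was 4.25 after IFNg, 5.06 after IL4, 2.90 after TNFa, 4.25 after TGFb1, 3.70 after IL1b, 2.83 after MALP2 and 2.48 after CpG, against 4.59 untreated. H2-DMa over H2-DMb1 was 1.998 after IFNg and 1.57 after IL4, and 0.693 to 0.821 after the other 5, against 1.05 untreated.

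**Figure D4:**
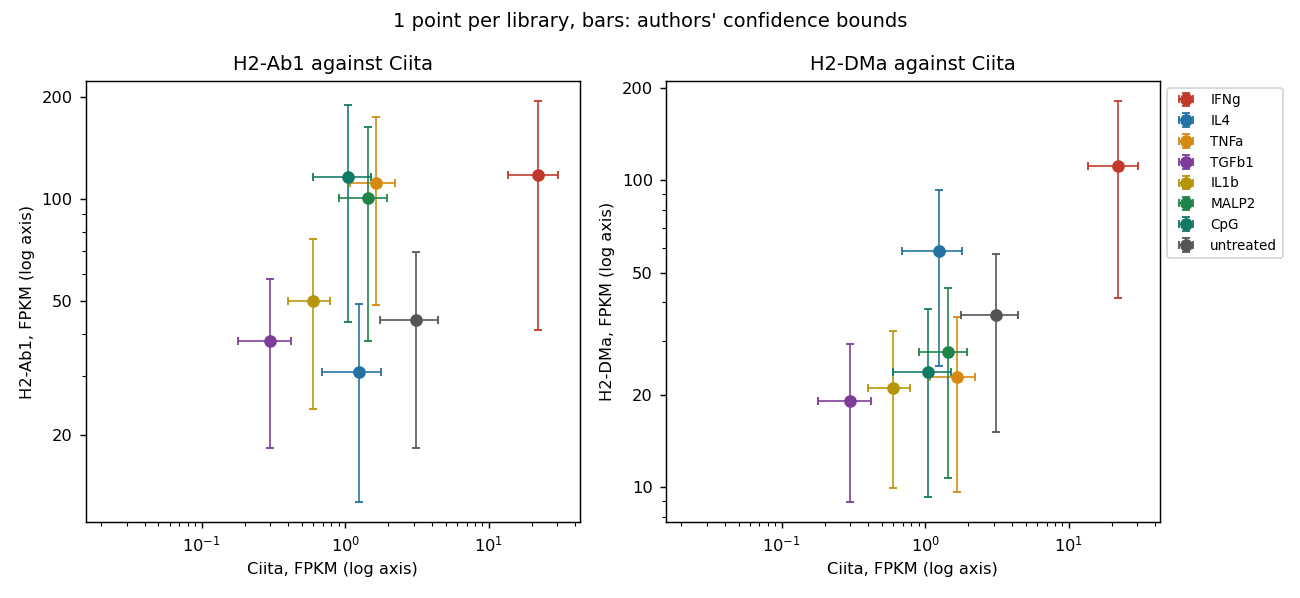
FPKM of H2-Ab1 (left) and H2-DMa (right) against FPKM of Ciita (log axes); each point is 1 library and bars are the authors' confidence bounds. In the left panel TNFa, MALP2 and CpG lie above untreated in H2-Ab1 (112, 101 and 116 against 43.9 FPKM) and left of it in Ciita.

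The genes most alike to Ciita in pattern over the 8 libraries were Fah (Pearson r = 0.991), Tmem229b (0.986), Themis2 (0.984), Tmem229b-ps (0.982) and Gm15753 (0.980), among 5301 genes with enough range. Without the IFNg library, which stands apart, their r was 0.885 to 0.980. Themis2, for example, was at 551 FPKM after IFNg and 22.7 to 41.8 after the other 6, against 82.3 FPKM untreated. Those most like the mean of H2-Aa, H2-Ab1, H2-Eb1 and Cd74 were Il2rg (0.982), Psme2 (0.972), Helz2 (0.970), Psme2b (0.970) and Col4a2 (0.969), with r of 0.956 to 0.978 without IFNg. Il2rg had 338 FPKM after IFNg, 68.4 after IL4, 261 after TNFa, 90.1 after TGFb1, 140 after IL1b, 189 after MALP2 and 218 after CpG, against 129 FPKM untreated. The 2 groups of 5 shared no gene. Groups this small, drawn from 5301 genes, would seldom share one in any case, so nothing is read from it. Tmem229b and Tmem229b-ps, and Psme2 and Psme2b, are near copies.

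Between members, the pattern of H2-DMb1 was closest to that of Ciita (r = 0.91 over 8 libraries, 0.78 over 7 without IFNg), followed by H2-DMa (0.86, and 0.50 without IFNg). H2-Ab1 was the farthest over 8 libraries (0.44, and 0.17 without IFNg), and H2-Aa the farthest over the 7 without IFNg (0.58, and 0.094 without it). The libraries share 1 normalisation and IFNg stands apart, so these coefficients are descriptions. H2-DMb1 spanned 2.39-fold over the libraries and 1.61-fold without IFNg, with no bounds apart. Its value is also uncertain through the sequence it shares with H2-DMb2.

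Of 24 factors that act on class II genes or on Ciita, 7 were at least 2-fold higher and 2 lower after IFNg, with a median of 0.092, where 10.7% of all tested genes were higher and 12.7% lower. The interferon factor Irf1, which acts on the inducible Ciita promoter, had 1650 FPKM after IFNg, against 75.8 FPKM untreated. It was lower after IL4 (29.0 against 83.5 FPKM untreated) and after TGFb1 (25.0 against 82.6 FPKM untreated). Irf8, a further interferon-regulated factor, had 1308 FPKM after IFNg, against 155 untreated, and 74.5 FPKM after IL4, against 170 untreated.

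Socs1, the feedback inhibitor of JAK signalling, had 260 FPKM after IFNg, 94.1 after IL4 and 22.0 after CpG, while its untreated level was below 1 FPKM. After TGFb1 it stayed below 1 FPKM. Jak2, a kinase of the interferon gamma receptor, was at least 2-fold higher after all 7 stimuli, from 1.09 after IL1b to 3.36 after IL4. All 7 of these differences share the 1 untreated library. After IL1b the bounds overlapped (4.89 to 15.2 against 1.98 to 6.38 FPKM untreated), and the authors did not call that change (q = 0.0918). Higher and lower counts were 4 and 6 of 24 after IL4, where 9.86% and 11.9% of all tested genes passed. They were 2 and 0 after TNFa (8.92% and 10.4%), and 2 and 3 of 23 after TGFb1 (7.15% and 9.15%). After IL1b they were 1 and 2 (7.29% and 8.57%), after MALP2 4 and 1 (9.53% and 11.7%), and after CpG 5 and 0 (9.43% and 11.2%). The counts of 2 of 24 or fewer lie near or below those shares.

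Among the DNA-bound factors that recruit Ciita, all chosen here after their values were seen, single subunits passed 2-fold. Rfx5, a subunit of RFX, had 3.26 FPKM after IL4, against 10.9 untreated, and 4.57 FPKM after TGFb1, against 10.7 untreated. After IFNg it was 10.2 FPKM, against 9.85 untreated. Nfya, a subunit of NF-Y, had 152 FPKM after IL4, against 71.0 untreated, and 154 FPKM after TGFb1, against 70.3 untreated. Nfyb, another NF-Y subunit, had 14.1 FPKM after IFNg, against 3.76 untreated. Rfxap, Rfxank, Nfyc and Creb1 passed 2-fold in no comparison.

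**Figure D5:**
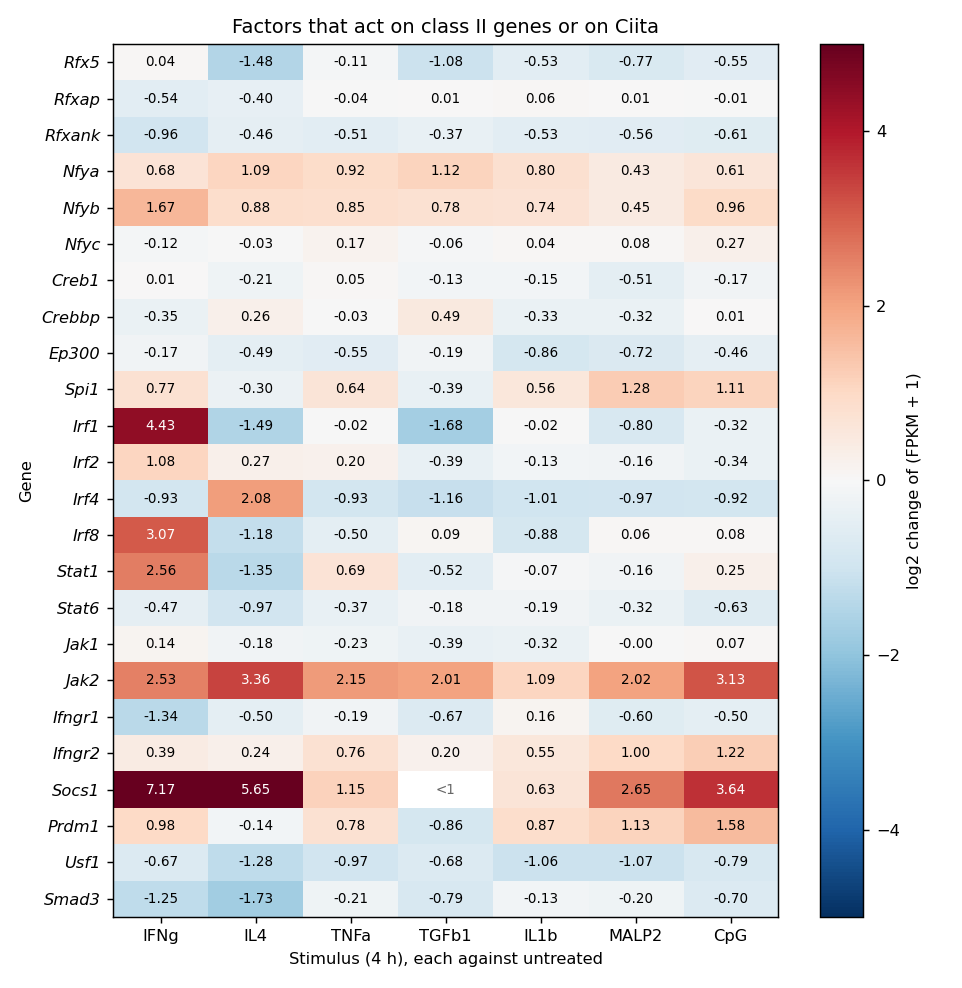
Log2 change of FPKM + 1 for 24 factors that act on class II genes or on Ciita (rows) after each stimulus (columns), against untreated cells; red is higher and blue lower, colours are capped at a size of 5 and "<1" marks a gene below 1 FPKM in both libraries. Jak2 is red throughout, and Irf1 is 4.43 after IFNg and -1.68 after TGFb1.

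Among 4 other genes of the class II locus with an identifier, H2-Ob, a chain of the DM inhibitor DO, was the only one that reached 1 FPKM. It was 0.593 to 0.939 FPKM after the stimuli, against 1.04 to 1.15 FPKM untreated across the tables. H2-Oa and H2-Eb2 stayed below 1 FPKM, and the pseudogene H2-Ea-ps was listed at 0 in all 8 libraries.

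Of 13 genes of endosomal antigen processing, 10 had valid estimates. Ctsc, the protease cathepsin C, was at least 2-fold higher after IFNg (1133 against 229 FPKM untreated), MALP2 (788 against 238 FPKM untreated), CpG (708 against 238 FPKM untreated) and TNFa (489 against 242 FPKM untreated), and no other gene of the list was 2-fold higher after any stimulus. After IL1b Ctsc had 468 FPKM, against 245 untreated, a log2 change of 0.93. After IL4 the proteases Ctsh (186 against 416 FPKM untreated) and Napsa (37.8 against 80.8 FPKM untreated) were lower, and the list median was -0.71, where that of all tested genes was -0.11. These were 2 of 10 genes, where 11.9% of all tested genes were lower. Ctsk was lower after MALP2 (2.67 against 6.88 FPKM untreated) and Lgmn after TNFa (706 against 1460 FPKM untreated). Each was 1 of 10 genes, where 11.7% (MALP2) and 10.4% (TNFa) of all tested genes were lower. The authors' deposited table called neither of them, nor Napsa after IL4. Ctsc was just short of 2-fold lower after IL4 (125 against 252 FPKM untreated), a decrease that table called (q = 0.0184). List medians were below those of all tested genes after the other 5 stimuli than IFNg and IL4, between -0.50 and -0.38.

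The surface turnover of class II is governed by the ubiquitin ligase March1, which removes it, and by Cd83, which opposes March1. March1 had 17.8 FPKM after IFNg, against 8.27 untreated, 23.8 FPKM after CpG, against 8.59 untreated, and 2.17 FPKM after IL1b, against 8.87 untreated. Cd83 had 159 FPKM after IFNg, against 54.9 untreated, and 11.5 FPKM after TGFb1, against 59.9 untreated. Both genes were at least 2-fold higher after IFNg and at least 2-fold lower after TGFb1. The authors' deposited table did not call Cd83 after IFNg (q = 0.0806). After TNFa March1 had 4.36 FPKM, against 8.76 untreated, and Cd83 had 27.0 FPKM, against 58.2 untreated. After IL4 both were lower, short of 2-fold (-0.23 and -0.73). The genes moved in opposite directions after MALP2, IL1b and CpG. There the log2 changes were 0.79, -1.64 and 1.37 for March1, and -1.24, 0.78 and -0.45 for Cd83. That table called these changes of March1 and none of those of Cd83. The tetraspanin Cd82, which associates with class II, was higher after TNFa (266 against 79.7 FPKM untreated), MALP2 (211 against 78.2 FPKM untreated) and CpG (205 against 78.2 FPKM untreated). Sppl2a, the protease that clears the last membrane fragment of the invariant chain, was 119 FPKM after IFNg, against 59.3 untreated, just short of 2-fold at 0.99.

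The class I pathway, measured in 15 of 16 listed genes, gave a further comparison. After IFNg 7 of 15 were at least 2-fold higher and 0 lower, where 10.7% and 12.7% of all tested genes were. After IL4 and TGFb1, 0 were higher and 4 of 15 lower in each, where 11.9% and 9.15% of all tested genes were lower. Nlrc5, the class I counterpart of Ciita, had 120 FPKM after IFNg, against 18.4 untreated, 4.39 FPKM after IL4, against 20.3 untreated, 5.05 FPKM after TGFb1, against 20.1 untreated, and 7.13 FPKM after IL1b, against 19.7 untreated. Its level was below untreated after the same 6 stimuli as that of Ciita, and all of these differences share the 1 untreated library. After TNFa, MALP2 and CpG the log2 changes of Nlrc5 were small (-0.38, -0.47 and -0.22), with overlapping bounds. The authors' deposited table did not call them (q = 0.557, 0.507 and 0.811). The peptide transporter gene Tap1 had 531 FPKM after IFNg, against 77.6 untreated, and 27.2 FPKM after TGFb1, against 84.7 untreated.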

How the data were processed

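Per the submitters' processing notes, TopHat 1.3.1, Cufflinks 1.2.1 and Cuffdiff 1.2.1 were used with mm9. The sources used here give neither options nor strandedness, so reads of antisense or overlapping genes cannot be told apart. Per the file headers, the authors deposited 1 table per stimulus of FPKM, each with a pair of confidence bounds whose level is not stated, and 1 table of their comparison with its q-value and call. The highest called q-value was 0.0499883. Of 36806 gene lines in each of 14 tables, 336 to 388 per comparison had no valid status and were left out. GENCODE symbols matched 31840 identifiers. Deposited locus starts were counted from 0 and were converted to count from 1.

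With 1 library per group, no p-value was computed and no count model was used. Genes of valid status that reached 1 FPKM in a stimulated or untreated library were tested, which left 12722 to 12908 genes. They were counted at a log2 ratio of 1 or more in size, after 1 was added to both FPKM values, which understates changes of low genes. Tables were joined by the ratio of their untreated values. That ratio was the same over 12144 genes to within 1.14e-05.

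All 9 members are named, with at most 4 genes per pathway list, those with the largest change, other list genes chosen after their values were seen, and the 5 genes most alike in pattern to Ciita and to the class II mean, among genes of at least 5 FPKM in 1 library and a log2 range of at least 1. Of the listed B-cell markers, 1 is not reported here. The members, though picked by name, and the lists were chosen with earlier results of these data known. Alternatives were the 2-fold rule with the authors' call added or with bounds that do not overlap, centring on the median, a smaller pseudocount (0.1), and a floor at 5 FPKM or none. The counting rule and the joining were tested on simulated data. Promoters and transcripts came from RefSeq (GRCm38.p6) and GENCODE. Python 3.11.15, numpy 2.4.6, pandas 2.3.3 and matplotlib 3.10.9 were used.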

Additional observations from a re-analysis of the deposited data

How the results depend on the processing

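Of 84 counts of members recomputed under 6 alternatives, 71 stayed within 1.5 times the reported count and 13 moved. The authors' call, the separate bounds and the floor of 5 FPKM can only remove genes from a count. Reported counts of 0 therefore could not move under them. With the authors' call required beside the 2-fold rule, the higher genes numbered 2 after IFNg, in place of 5, and 0 after TNFa, MALP2 and CpG, in place of 1 each. With bounds that do not overlap, they numbered 1 after IFNg and 0 after TNFa, MALP2 and CpG. With a pseudocount of 0.1, Ciita became the 1 lower gene after IL4, MALP2 and CpG, in place of 0. With a floor of 5 FPKM the lower gene after TGFb1 and IL1b, Ciita, dropped out (0 in place of 1), because its FPKM is below that floor in both libraries. With no floor every count was as reported, and centring gave 6 in place of 5 higher genes after IFNg, with H2-Eb1 added, and changed no other count. Of 252 single-gene values under a pseudocount of 0.1, centring, the authors' call and separate bounds, 235 stayed on their side of the rule. In 13, all higher values of H2-Aa, H2-Ab1, H2-DMa or Cd74, the call or the bounds were not met, 4 newly passed 2-fold and 0 reversed. The 4 were H2-Eb1 after IFNg when centred and Ciita after IL4 (-1.26), MALP2 (-1.06) and CpG (-1.47) with the smaller pseudocount. The call and the bounds leave a value unchanged, so values short of 2-fold could not change sides under them. No paired analysis was possible because each group is 1 library. The main limits are the absence of replicates, the single untreated library behind all 7 comparisons, the unknown depth, the low level of Ciita and the reads that H2-DMb1 and H2-DMb2 share.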

Other observations

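Genes of surface proteins that accompany class II presentation to T cells passed 2-fold more often than the class II genes did. The list held the costimulatory genes Cd40, Cd80, Cd86 and Icosl, the inhibitory ligands Cd274 and Pdcd1lg2, and the adhesion ligand Icam1. Its counts are therefore not of costimulation alone, and those higher after IL4 included Cd274 and Pdcd1lg2. Of the 7 listed, 6 were at least 2-fold higher after IFNg, 4 after IL4, 4 of 6 tested after TNFa and IL1b, 5 of 6 after MALP2 and CpG, and 1 of 6 after TGFb1, where 7.15% (TGFb1) to 10.7% (IFNg) of all tested genes were higher. After IL4, 1 of the 7 was lower, Icosl (1.58 against 11.8 FPKM untreated), where 11.9% of all tested genes were lower. Cd40 had 1000 FPKM after IFNg and 423 after CpG, against 14.1 and 14.7 FPKM untreated in the tables of those stimuli. Cd86, a ligand of CD28, was higher after all 7 stimuli, including TGFb1 (26.7 against 4.57 FPKM untreated), after which no class II gene was 2-fold higher. The 7 differences of Cd86 share the 1 untreated library. Cd274, which encodes PD-L1, had 298 FPKM after IFNg, against 8.43 untreated. Pdcd1lg2, which encodes PD-L2, had 35.5 FPKM after IL4 and 2.46 after IFNg, and was below 1 FPKM in untreated cells and after the other 5 stimuli.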
